A study of Mus musculus with 3 samples.

Results

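Dividing cells were 85 of the 4102 CD45+ leukocytes profiled by scRNA-seq from the mouse muscularis, the smooth muscle layer of the small intestine that holds the neurons of the gut wall. The members were chosen by measured values, and a cell was taken as dividing where the summed UMIs (unique molecular identifiers, each counting 1 captured mRNA) of Top2a, Pclaf, Mki67 and Birc5 reached 3. The study followed immune cells after intestinal manipulation, a surgical handling of the gut that inflames the muscularis. Female wild-type C57BL/6J mice 12 weeks of age gave 1 library each for naïve animals, 24 h after surgery and 72 h after surgery, each from sorted CD45+ cells of several pooled mice. With 1 library per time point, time, pool and library cannot be told apart, no test between time points was possible, and every 95% interval below is an exact interval that covers counting error only.

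Dividing cells express their genes in an order. Licensing and replication genes such as the Mcm helicase subunits, Pcna and the ribonucleotide reductases rise as DNA is copied, and the mitotic cyclins, Cdk1, Plk1 and the spindle proteins rise afterwards, as the chromosomes are separated. In lymphoid tissue the best known site of rapid division is the germinal centre, where activated B cells divide and are selected for the antigen they bind. Tissue Mφs can also renew by division in place, whereas neutrophils have left the cell cycle before they enter the blood.

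The 4 genes of the rule span that order. Top2a untangles DNA, Pclaf binds the sliding clamp Pcna, Mki67 encodes the Ki-67 antigen and Birc5 encodes survivin of the chromosomal passenger complex. Of the 4102 cells, 3831 had no UMI of the 4 genes, 169 had 1 and 17 had 2. Among the dividing cells 7 had 3 UMIs, 24 had 4 to 9 and 54 had 10 or more, up to 57. Just outside the threshold, 13 of the 17 cells with 2 UMIs were in the 72 h library. The 69 other cell cycle genes described next had medians of 27 UMIs in the 3 such naïve cells and 6 in those 13.

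The libraries totalled 1865221, 10542346 and 5246731 UMIs, with medians of 2134.5, 4669 and 3295 per cell. Each pair of libraries shared 1 cell barcode, which was not from a dividing cell. Ptprc, which encodes CD45, was found in 30 of 34, 5 of 6 and 40 of 45 dividing cells. A doublet score of 0.2 or more was given to 118 cells, of which 2 were dividing.

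The label was checked with 69 other replication, nucleotide synthesis, mitotic and spindle genes that the rule did not use. They summed to 10 UMIs or more in 83 of the 85 dividing cells and in 152 of 4017 other cells, with medians of 65 and 2 UMIs. Per 1000000 UMIs of the group (CPM) the same genes reached 8551 in dividing and 735 in other cells. Of the 2 dividing cells below 10 UMIs, both at 72 h and both by the Lyz2 criterion, 1 had 3 UMIs of Mki67 as its whole score and only 2 UMIs of the 69 genes.

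Promoters of cell cycle genes were searched for 3 short motifs, and those of 3 rule genes, 2 mitotic genes and 1 replication gene are shown to let the motifs be seen side by side. The sequences are the 150 bases before the annotated start in RefSeq, 5′ to 3′ on the strand of the gene (build GRCm38.p6, the mm10 assembly of the count tables). Capitals mark the CCAAT box (CCAAT), the cell cycle homology region or CHR (TTTGAA or TTCGAA) and the E2F core (TTTGGCGC, TTTCCCGC, TTTCGCGC or TTTGCCGC; not present in these 6 windows), each on either strand, so that ATTGG is a CCAAT box and TTCAAA a CHR on the other strand. The windows lie at chr11:99024190-99024339 on the minus strand, chr7:135716380-135716529 on the minus strand, chr11:117849087-117849236 on the plus strand, chr9:70421555-70421704 on the minus strand, chr2:164769779-164769928 on the plus strand and chr1:20820313-20820462 on the minus strand.
Top2a: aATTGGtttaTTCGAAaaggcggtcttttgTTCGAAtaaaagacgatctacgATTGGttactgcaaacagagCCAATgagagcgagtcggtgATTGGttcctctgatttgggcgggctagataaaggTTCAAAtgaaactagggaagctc
Mki67: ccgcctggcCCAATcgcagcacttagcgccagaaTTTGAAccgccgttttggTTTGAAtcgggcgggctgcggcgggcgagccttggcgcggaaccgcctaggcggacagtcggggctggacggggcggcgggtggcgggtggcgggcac
Birc5: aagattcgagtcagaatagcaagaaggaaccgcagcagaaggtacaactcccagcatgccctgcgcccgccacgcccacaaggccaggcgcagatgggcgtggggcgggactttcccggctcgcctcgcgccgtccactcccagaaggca
Ccnb2: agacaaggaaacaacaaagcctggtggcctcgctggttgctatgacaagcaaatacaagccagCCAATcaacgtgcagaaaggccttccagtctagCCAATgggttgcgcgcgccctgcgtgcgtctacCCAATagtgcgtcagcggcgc
Ube2c: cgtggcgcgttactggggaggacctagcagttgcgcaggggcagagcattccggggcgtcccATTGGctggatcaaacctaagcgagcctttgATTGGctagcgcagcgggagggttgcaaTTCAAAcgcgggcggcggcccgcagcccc
Mcm3: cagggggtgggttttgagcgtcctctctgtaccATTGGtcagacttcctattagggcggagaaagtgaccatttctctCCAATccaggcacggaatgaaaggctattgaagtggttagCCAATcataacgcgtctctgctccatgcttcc

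Counted over the 250 bases before the start, a CCAAT box stood in 14 of the 15 mitotic kinase and cyclin promoters with an entry (93.3%), against 34.5% of all 27025 promoters. It was there at least 2 times in 12 of those 15 (80%), against 10.5% of all promoters. Spindle and centromere genes had a CCAAT box in 12 of 16 promoters (75%), replication genes in 12 of 19 (63.2%) and nucleotide synthesis genes in 2 of 9 (22.2%). The CHR was present in 7 of the 15 mitotic promoters (46.7%), 5 of 16 spindle promoters (31.25%), 4 of 19 replication promoters (21.1%) and 1 of 9 nucleotide synthesis promoters (11.1%), against 17.4% of all. The E2F core was found in 6 of the 19 replication promoters (31.6%) and in 1.91% of all promoters. Among the rule genes the E2F core was found in 0 of 4 promoters, and Birc5 was the 1 gene without a CCAAT box. The printed Birc5 window holds none of the 3 motifs. A match describes letters only, and whether a factor was bound was not measured.

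Dividing cells made up 5.21% of cells in naïve mice (34 of 652, interval 3.64 to 7.21%), 0.271% at 24 h (6 of 2211, interval 0.0997 to 0.590%) and 3.63% at 72 h (45 of 1239, interval 2.66 to 4.83%). The 24 h interval did not overlap either of the others. The rule counts UMIs and so favours deep cells, and dividing cells held more UMIs than the rest, with median totals of 7983 against 2084 UMIs in naïve mice, 10996 against 4665 at 24 h and 8562 against 3174 at 72 h. With every cell thinned to 1500 UMIs, and shallower cells left out, the shares were 3.88% (20 of 516), 0.174% (3 of 1726) and 1.93% (18 of 933), and the 24 h interval again did not overlap the others. The library with the deepest cells, 24 h, thus had the lowest share both before and after thinning. The make-up of the libraries also differed. By the lineage criteria given below, B cells were 38.0% of the other cells in naïve mice and 1.72% at 24 h. Myeloid cells were 16.8% and 69.1%. Within B, T and myeloid cells the naïve and 24 h intervals of the dividing share overlapped. Whether the lower share at 24 h follows the make-up was not tested.

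The lineage criteria were at least 1 UMI of Cd79a, a part of the B cell receptor, for B cells, at least 1 UMI of Cd3e, a part of the T cell receptor complex, for T cells, and Lyz2, the lysozyme of myeloid cells, at 0.3% or more of UMIs. In naïve mice 22 of the 34 dividing cells were B cells (64.7%), 5 were T cells, 1 was myeloid, 4 met 2 criteria and 2 met none. Of the other naïve cells 38.0% were B cells, 23.3% T cells, 16.8% myeloid and 17.8% met none. At 24 h the 6 dividing cells were 1 B cell, 2 myeloid cells and 3 cells that met no criterion. Of the other cells at 24 h these groups were 1.72%, 69.1% and 25.7%. At 72 h the 45 were 6 B cells, 6 T cells, 10 myeloid cells, 2 cells with 2 criteria and 21 that met none. B and T cells were each 13.3% of these dividing cells, against 3.94% and 6.53% of the other cells. Myeloid cells were 22.2% against 53.5%, and cells that met none 46.7% against 32.6%. Of those 21, 18 had genes of MHC class II antigen presentation to helper T cells (Cd74, H2-Eb1, H2-Ab1 and H2-Aa, together MHCII) at 1% or more of their UMIs. This MHCII-high class was 40% of the dividing and 7.04% of the other cells at 72 h, and it was set up after the data were seen.

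Within B cells the dividing share was 8.56% in naïve mice (22 of 257, interval 5.44 to 12.7%), 2.56% at 24 h (1 of 39) and 11.3% at 72 h (6 of 53, interval 4.27 to 23.0%). The intervals of the B cell shares overlapped at all 3 times. Within T cells the share was 3.36% (5 of 149), 0 of 34 and 7.14% (6 of 84), again with overlapping intervals. The 0 of 34 allows a share of up to 8.82% by a limit of 3 counts and 10.3% by the exact interval. Within myeloid cells it was 0.952% (1 of 105), 0.131% (2 of 1525, interval 0.0159 to 0.473%) and 1.54% (10 of 649, interval 0.741 to 2.82%). The myeloid share was higher at 72 h than at 24 h beyond counting error, but after thinning it was 0.508% (3 of 590) against 0 of 1354, and the intervals then overlapped.

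**Figure D1:**
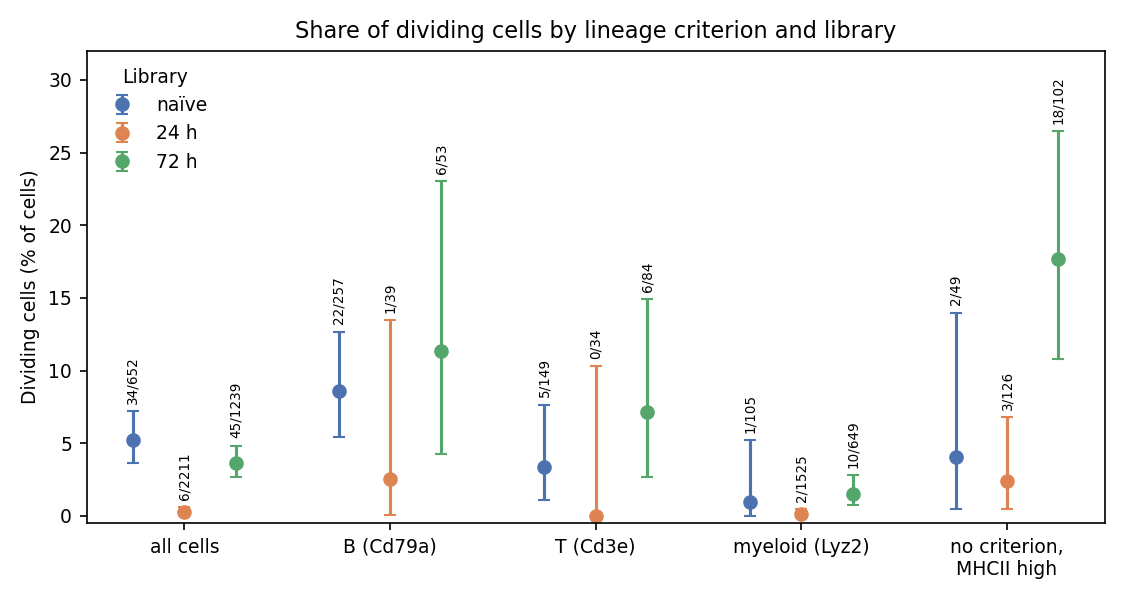
Share of dividing cells (% of cells, y axis) for all cells and for each lineage criterion (x axis) in the naïve, 24 h and 72 h libraries. Points are shares, bars are exact 95% intervals for counting error, and the labels give dividing over all cells. The highest point is the MHCII-high class at 72 h (18 of 102), and the 24 h library has the lowest share of all cells (6 of 2211).

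The MHCII-high cells without a criterion were a further class. Their dividing share was 4.08% in naïve mice (2 of 49, interval 0.498 to 14.0%), 2.38% at 24 h (3 of 126, interval 0.494 to 6.80%) and 17.6% at 72 h (18 of 102, interval 10.8 to 26.4%). Dividing and other cells of this class at 72 h were close in depth, with medians of 8707 and 7208.5 UMIs. After thinning to 1500 UMIs and the class drawn again on the thinned cells, the shares were 2.13% (1 of 47), 2.42% (3 of 124) and 4.85% (5 of 103), and the intervals overlapped. With the MHCII minimum at 0.5% or 2% of UMIs the 72 h share was 14.4% and 18.1%. The class held different cells in each library. Cells with the complement genes C1qa, C1qb and C1qc at 0.1% or more of UMIs, as in tissue Mφs, were 44.7%, 26.8% and 10.7% of its other cells in the naïve, 24 h and 72 h libraries. Cd209a, a gene of monocyte-related dendritic cells, was counted only in cells below that minimum and with under 2 UMIs of the neutrophil gene Retnlg. Such cells with at least 2 UMIs of Cd209a were 12.8%, 26.8% and 42.9% of all other cells of the class. These shares thus depend in part on the share of C1q cells. The dividing shares at the 3 times are therefore not those of 1 kind of cell. Cells without a criterion and with low MHCII gave 0 of 63, 0 of 443 and 3 of 308 dividing cells.

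A single UMI of Cd79a or Cd3e can come from RNA that is free in the droplets. Cd79a was seen in 10.5%, 2.29% and 4.63% of myeloid cells in naïve, 24 h and 72 h libraries, and Cd3e in 4.84%, 0.510% and 1.88%. Median depth was 3641, 5703 and 5079 UMIs in those myeloid cells. At 72 h 1 of the 6 dividing B cells had only 1 UMI over 8 B cell genes beside 41 UMIs of the chemokine gene Ccl17 and 494 of the MHCII genes. Likewise 1 of the 6 dividing T cells had only 1 UMI over 8 T cell genes, beside 5 of the dendritic cell receptor gene Flt3, 4 of Clec9a and 372 of the MHCII genes. These cells meet the rule, but their other genes go against the lineage given by the criterion, and without them 5 B cells and 5 T cells remained.

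Neutrophils, marked by at least 2 UMIs of Retnlg, held no dividing cell in any library. There were 0 of 91 at 24 h and 0 of 43 at 72 h, but the naïve library had only 3 such cells. A limit of 3 counts allows up to 3.30% at 24 h and 6.98% at 72 h, and the exact intervals end at 3.97% and 8.22%. Median depth of these neutrophils was 1287 UMIs at 24 h and 1521 at 72 h, below that of the dividing cells. Endothelial, smooth muscle, fibroblast, glial and neuronal genes were at or near 0 in the dividing cells. The endothelial list summed to 10, 0 and 20 UMIs in the dividing cells of the 3 libraries with Cdh5 and Kdr at 0 throughout, and the muscle and fibroblast list to 1, 0 and 2. The epithelial list summed to 5, 2 and 15 UMIs, with Krt8 at 0.

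Naïve B cells were the 1 lineage with at least 20 dividing cells, and their 22 dividing cells were compared gene by gene with the 235 other B cells of the same library. Of 2497 genes with a mean of at least 50 CPM, 603 were at least 2-fold higher in dividing cells (24.1%) and 178 at least 2-fold lower (7.13%), on the scale of CPM + 10. The median gene stood 0.42 higher on the log2 scale. A gene at 30 CPM or less in 1 group can reach that mean only if it is past 2-fold, so its call is fixed by the filter. Without such genes 433 of 2262 were past 2-fold higher (19.1%) and 113 lower (4.996%). Gene lists are therefore described by the summed level of all their measured members, with no filter, and by the members whose call was not fixed. Over all genes 40.3% had a higher CPM in dividing cells. Because 1 library was measured these are counts past a fold and not tests. Cell cycle lists are near to the genes of the rule, so their levels describe the cells and are not independent of the way the cells were chosen.

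All 22 replication genes had a higher CPM in dividing cells, and together they were at 4116 CPM in dividing and 508 CPM in other B cells (ratio 8.11, interval 7.03 to 9.37). Of the 16 that passed the filter the call was fixed for 12, and the other 4 were past 2-fold higher. Mcm3, a subunit of the replicative helicase, was at 315 CPM in dividing and 19.4 CPM in other B cells (ratio 16.3, interval 8.23 to 35.7). Pcna, the sliding clamp, was at 299 against 19.4 CPM. The 10 nucleotide synthesis genes were also higher, at 2384 against 291 CPM in sum (ratio 8.20, interval 6.80 to 9.94). Rrm2, the small subunit of ribonucleotide reductase, had 76 UMIs in the 22 dividing cells and 2 in the other 235.

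The 17 mitotic kinase and cyclin genes summed to 503 UMIs in dividing and 64 in other B cells, which is 2782 against 124 CPM (ratio 22.4, interval 17.3 to 29.6), and 16 of the 17 had a higher CPM in dividing cells. The 20 spindle and centromere genes all did, at 2384 against 124 CPM in sum (ratio 19.2, interval 14.8 to 25.4). The filter fixed the call of 11 of the 12 mitotic and 9 of the 10 spindle genes that passed it, so their calls are not counted here. For Cdk1, the kinase that drives mitosis, 13 of 22 dividing cells had a UMI and the level was at least 19.0-fold higher (lower end of the exact interval 14.1). Ccna2, cyclin A2, had 39 UMIs in 16 dividing cells and was at least 37.1-fold higher (lower end 28.8). Ccnb2, cyclin B2, whose promoter is printed above, had 36 UMIs in 11 cells and was at least 34.3-fold higher (lower end 26.5). All 3 genes had no UMI in the 235 other B cells. The bounds take 3 counts over the whole comparison group in place of 0 and leave out the counting error of the dividing cells, which the interval includes.

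The 18 chromatin and tubulin genes were at 18028 against 2264 CPM in sum (ratio 7.96, interval 7.45 to 8.52), and all 10 whose call was not fixed were past 2-fold higher. Stmn1, the microtubule destabiliser stathmin and a marker of the dividing cells that the rule did not use, had the highest ratio of all genes compared on the scale of CPM + 10, with 1339 CPM in dividing and 17.4 CPM in other B cells, though genes at or near 0 in other cells, Cdca3 and Ccna2 among them, had higher ratios of CPM itself. A UMI of Stmn1 was found in 21 of 22 dividing and 6 of 235 other B cells. Hmgb2, a chromatin protein, was at 3026 against 167 CPM and the histone variant gene H2afz at 2738 against 238 CPM.

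Germinal centre genes were higher in the dividing naïve B cells. Mef2b, a transcription factor of germinal centre B cells, was at 631 CPM in dividing and 107 CPM in other B cells. Rgs13, a regulator of chemokine receptor signals, was at 564 against 101 CPM, and S1pr2, a receptor that holds cells in the follicle, at 188 against 34.9 CPM. Without Cd38 the 11 genes of the list were all higher in CPM, at 2937 against 531 CPM in sum (ratio 5.53, interval 4.77 to 6.42), and all 6 whose call was not fixed were past 2-fold higher. The exception was Cd38, which mouse germinal centre B cells lower, at 22.1 against 188 CPM.

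Genes of resting follicular B cells were lower. All 8 had a lower CPM in dividing cells, at 144 against 1463 CPM in sum (ratio interval 0.0638 to 0.145), and the 3 whose call was not fixed were past 2-fold lower. Ighd, the constant region of IgD, was at 44.3 CPM in dividing and 610 CPM in other B cells, and Fcer2a, encoding CD23, at 33.2 against 186 CPM. Gpr183, which guides B cells to the edge of the follicle, had 0 UMIs in dividing cells and 46 in the others. Klf2, a transcription factor of quiescent lymphocytes, was at 22.1 against 632 CPM, and Btg1, an anti-proliferative gene, at 415 against 1717 CPM. In the quiescence list 3 of the 7 genes whose call was not fixed were past 2-fold lower and 0 higher.

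The other named genes with the highest ratios were Cdca3, Cdca8, Ube2c, Asf1b and Spc24, all with roles in mitosis or chromatin assembly, and Ccl8. Ccl8, a chemokine gene of Mφs, had 36 UMIs in dividing B cells, of which 34 came from 1 cell that also held 187 UMIs of the tissue macrophage list. The other named genes with the lowest ratios were Iglv1, Ly6d, Serpinb1a, Pxdc1, Ifi203, Ccl3, Fxyd5, Gm31243 and Bank1. Bank1, a B cell receptor adaptor, was at 22.1 CPM in dividing and 465 CPM in other B cells, and Ly6d at 60.8 against 1609 CPM. Iglv1 was at 0 in dividing cells and 283 CPM in the others, and without the 5 B cells of the library that had 5% or more of their UMIs in plasma cell genes its log2 ratio was -0.51.

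Glycolysis genes were at 5128 against 2128 CPM in sum (ratio 2.41, interval 2.21 to 2.63), with 6 of the 9 whose call was not fixed past 2-fold higher. Gapdh was at 1516 CPM in dividing and 438 CPM in other B cells and Ldha, lactate dehydrogenase, at 835 against 266 CPM. Among D cyclins, which carry cells through the start of the cycle, Ccnd3 was at 288 against 89.1 CPM and Ccnd2 at 11.1 against 98.8 CPM. The B cell identity genes differed less, with 2 of 8 past 2-fold lower and 0 higher. Ms4a1, encoding CD20, was at 1283 against 919 CPM, and Cd79a at 1223 against 2647 CPM. Every cell of both groups was chosen by at least 1 UMI of Cd79a, which is a larger CPM in a shallower cell. The other B cells were shallower, so the level of Cd79a and its call past 2-fold are not independent of the choice.

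Cell by cell, 20 of the 22 dividing naïve B cells had at least 2 UMIs of the germinal centre list without Cd38 (90.9%, interval 70.8 to 98.9%), against 20 of 235 other B cells (8.51%, interval 5.28 to 12.8%). Depth moved with this difference, since dividing B cells had a median of 8532.5 UMIs and the others 1747. Among the 22 other B cells nearest to them in depth 11 met the criterion (50%), but their median of 4656 UMIs was still below that of the dividing cells, so the share at equal depth was not measured. The 2 dividing B cells without germinal centre UMIs had 2566 and 2935 UMIs in total. Of the other B cells between 2000 and 5000 UMIs, 11 of 68 met the criterion. Above 5000 UMIs, all 19 dividing B cells and 6 of 10 other B cells met it, with 3033 and 791 CPM of the list. Without the cells that had 5% or more of their UMIs in plasma cell genes, 4 of 7 other B cells met it, with 1210 CPM.

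**Figure D2:**
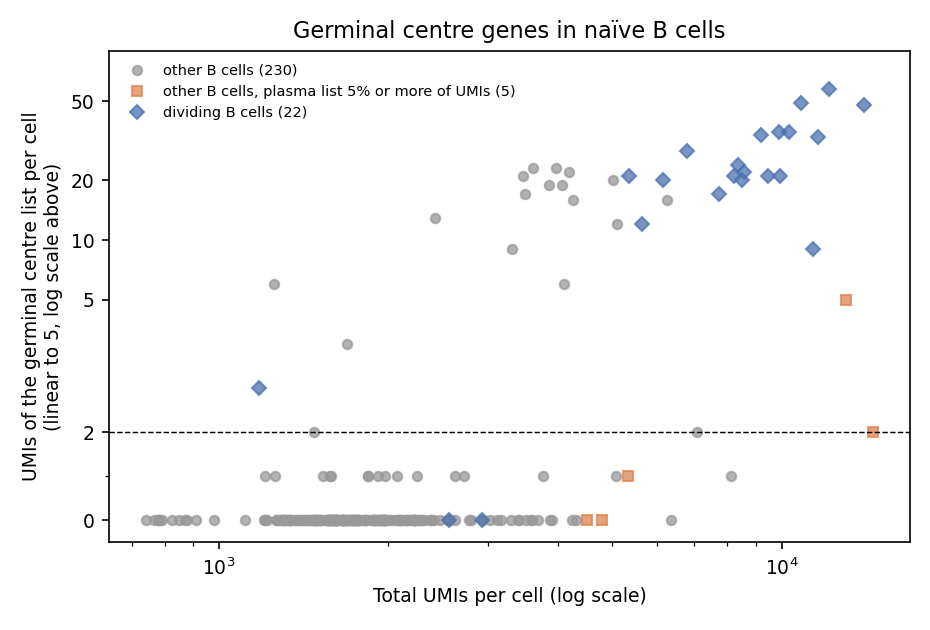
UMIs of the germinal centre list without Cd38 (y axis, linear to 5 and log above) against total UMIs (x axis, log scale) for each of the 257 naïve B cells. Diamonds are the 22 dividing cells, and the dashed line is the minimum of 2 UMIs. Circles are the 230 others with few plasma cell genes and squares the 5 with 5% or more of UMIs in them. All 19 dividing cells above 5000 UMIs lie over the line, as do 11 of 68 other cells between 2000 and 5000 UMIs.

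Looked at the other way, 20 of 38 germinal centre positive B cells were dividing (52.6%, interval 35.8 to 69.0%), and 2 of 217 germinal centre negative B cells were (0.922%, interval 0.112 to 3.29%). The 38 leave out 2 cells with plasma cell genes at 5% or more of UMIs. Both criteria are minima of UMIs that deep cells reach more easily, so these shares also follow depth. Between 2000 and 5000 UMIs, 0 of 2 dividing and 11 of 68 other B cells met the germinal centre criterion. Whether the shares differ at equal depth was not tested. A comparison added after the data were seen set the 20 dividing against the 18 other germinal centre positive cells, with median depths of 8885.5 and 3907.5 UMIs. Of 2702 genes compared, 320 were past 2-fold higher (11.8%) and 245 lower (9.07%), with a median log2 ratio of 0.01. Without genes whose call the filter fixed, 171 of 2466 were higher (6.93%) and 158 lower (6.41%).

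Within the germinal centre positive cells the cell cycle genes were again higher in the dividing ones. The replication list was at 4211 against 1356 CPM in sum (ratio 3.11, interval 2.50 to 3.897) and the nucleotide synthesis list at 2430 against 714 CPM (ratio 3.40, interval 2.53 to 4.67). The mitotic list was at 2824 against 335 CPM (ratio 8.42, interval 5.55 to 13.4) and the spindle list at 2379 against 321 CPM (ratio 7.42, interval 4.84 to 12.0). Of the genes whose call was not fixed, 10 of 13 replication and 13 of 14 chromatin and tubulin genes were past 2-fold higher. Stmn1 was at 1341 against 72.9 CPM. The germinal centre list, by which both groups were chosen, was at 3030 against 3644 CPM without Cd38, and Mef2b was at 650 against 700 CPM. Glycolysis genes were past 2-fold higher in 2 of 10, and in the quiescence list 1 of 8 was lower, none of them fixed by the filter. The 18 other cells had few UMIs, and Ccna2, with 37 UMIs against 0, was then at least 4.83-fold higher (lower end of the exact interval 3.73).

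**Figure D3:**
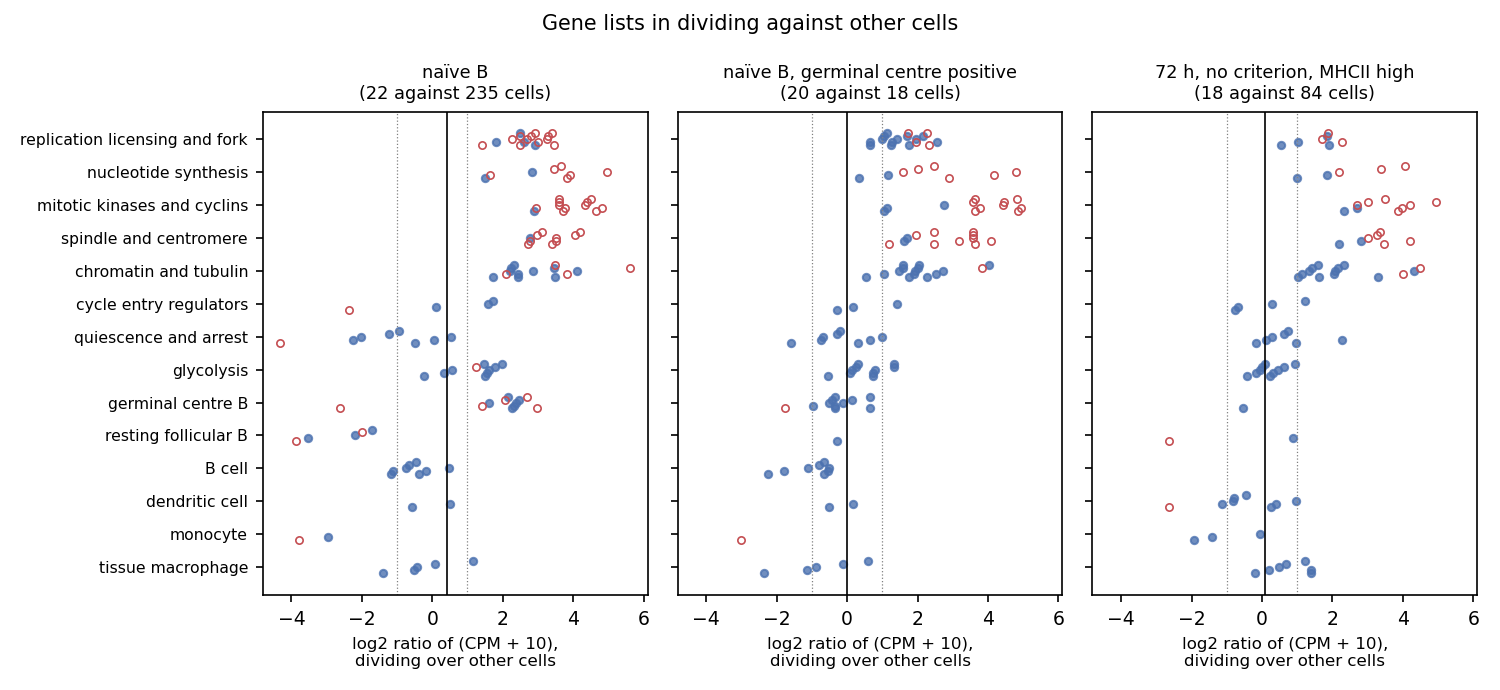
Log2 ratio of (CPM + 10) in dividing over other cells (x axis) for the genes of 14 lists (y axis) in naïve B cells, germinal centre positive naïve B cells and 72 h MHCII-high cells without a criterion. Points are genes that passed the filter, and open red points are those whose call the filter fixed. The solid line is the median of all genes compared and dotted lines mark 2-fold. The filled points of the chromatin and tubulin list lie past 2-fold in the left and right panels, 10 and 12 genes.

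B cells were fewer at 72 h. Of the 6 dividing cells 5 met the germinal centre criterion, with 17 to 80 UMIs of the list, against 5 of 47 other B cells (10.6%). Depth moved with this difference too, with medians of 7714.5 UMIs in dividing and 2026 in other B cells. Among the 6 other B cells nearest in depth, at a median of 6786 UMIs, 3 met the criterion (50%). Mef2b was found in 5 of the 6 dividing and 3 of the 47 other B cells. The 6th cell is the Ccl17 positive cell described above. At 24 h the 1 dividing B cell held 15 UMIs of the list, with 3 of Mef2b and 1 of S1pr2, and 5 of the 38 other B cells met the criterion. Cd38 had 0 UMIs in the dividing B cells at 72 h and 19 in the others.

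The 18 dividing MHCII-high cells at 72 h were compared with the 84 other cells of that class, a comparison also added after the data were seen. Of 2552 genes, 173 were past 2-fold higher (6.78%) and 63 lower (2.47%), and the median log2 ratio was 0.08. Without genes whose call the filter fixed, 118 of 2481 were higher (4.76%) and 47 lower (1.89%). The mitotic list was at 2580 CPM in dividing and 183 CPM in other cells in sum (ratio 14.1, interval 11.4 to 17.6), the spindle list at 2055 against 141 CPM (ratio 14.6, interval 11.4 to 18.8) and the replication list at 1466 against 411 CPM (ratio 3.57, interval 2.97 to 4.29). All 12 chromatin and tubulin genes whose call was not fixed were past 2-fold higher. The genes with the highest ratios were Ube2c, Hist1h2ap, Stmn1, Ccna2, Nusap1, Tk1, H2afx, Cdk1, Cdca3 and Lockd. Ube2c, the enzyme that tags mitotic proteins for destruction and whose promoter is printed above, was at 615 against 10.2 CPM. Cdk1 was found in 9 of 18 dividing cells and in 0 of 84 others, a level at least 28.9-fold higher (lower end of the exact interval 21.7).

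Outside the cell cycle Irf8 was lower in the dividing MHCII-high cells, while few genes of the dendritic cell list were past 2-fold. Irf8, a transcription factor needed for cross-presenting dendritic cells, was at 51.2 CPM in dividing and 445 CPM in other cells (ratio interval 0.0492 to 0.230) and was found in 3 of 18 and 34 of 84 cells. Xcr1 and Clec9a, surface markers of cross-presenting dendritic cells, were at 0 UMIs in the 18 dividing cells and in 10 of the 84 others each. The dividing cell described above that met the T criterion through 1 UMI of Cd3e, and so is not in this class, had 1 UMI of Xcr1 and 4 of Clec9a. Ccr7, the receptor that takes dendritic cells to lymph nodes, was found in 1 of 18 dividing cells and 9 of 84 others, and Ccl22 in 1 and 10. Whether such small counts of cells differ between the groups was not tested. Cd209a was in 11 of 18 and 42 of 84 cells, at 307 against 687 CPM. Flt3 was in 6 of 18 and 32 of 84 cells and Zbtb46, a factor of conventional dendritic cells, in 4 and 20. The other named genes with the lowest ratios were Tbc1d4, at 6.40 against 119 CPM, and Il4i1, Flot1, Ms4a4c, Sept3, Lrrc25 and Eif4ebp1. Over the list 1 of the 7 dendritic cell genes whose call was not fixed was past 2-fold lower and 0 higher.

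Some of these levels rested on single cells. Ccl17 was at 1146 CPM in dividing and 586 CPM in other cells, but 153 of its 179 UMIs came from 1 dividing cell, and without the highest cell of each group the levels were 184 and 363 CPM. C1qa, a complement gene of tissue Mφs, was at 506 against 187 CPM with 56 of 79 UMIs in 1 cell, and at 158 against 157 CPM without the highest cells. The 3 of 7 tissue macrophage genes past 2-fold higher were C1qa, C1qb and C1qc, and none of them was past 2-fold without the highest cells. The cell that held most of these UMIs had 375 of the tissue macrophage list while the other 17 had 9 to 56. Plac8, a monocyte gene, was at 256 against 699 CPM and in 12 of 18 and 47 of 84 cells.

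**Figure D4:**
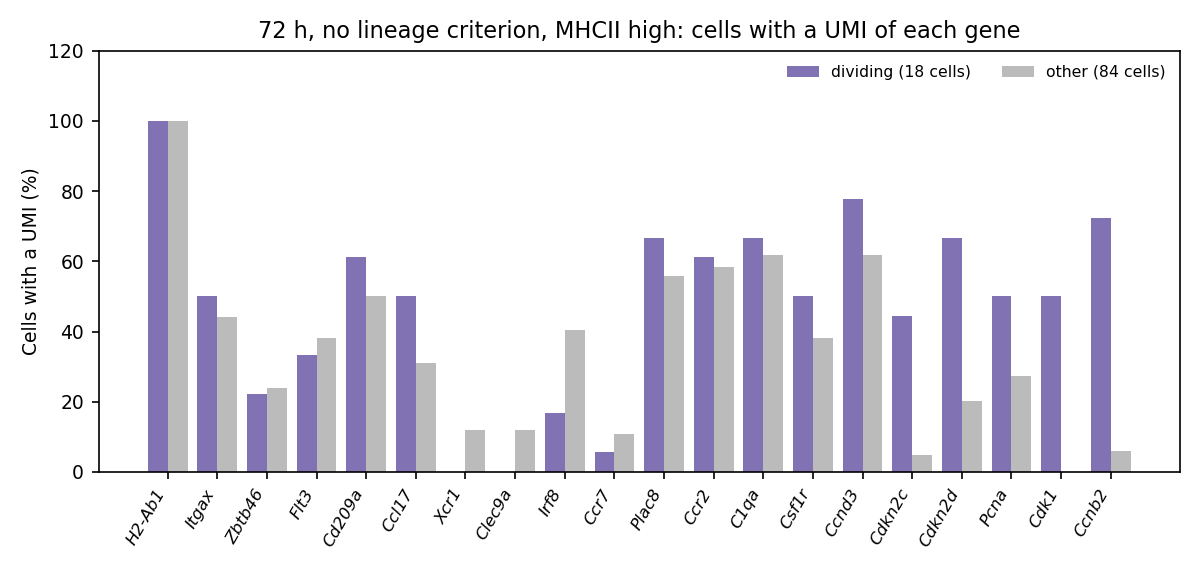
Share of cells with a UMI (%, y axis) of 20 genes (x axis) among the 18 dividing and 84 other MHCII-high cells without a lineage criterion at 72 h. H2-Ab1 was found in every cell of both groups, Cdk1 in 9 dividing and 0 other cells, and Irf8 in 3 and 34.

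The quiescence list, with the cell cycle inhibitors, was not lower in these dividing cells. In MHCII-high cells at 72 h 1 of 7 quiescence genes was past 2-fold higher and 0 lower. That gene was Cdkn2d, encoding the inhibitor p19, at 237 CPM in dividing and 40.7 CPM in other cells (ratio 5.82, interval 3.39 to 10.2). Its relative Cdkn2c had 12 UMIs in 8 of 18 dividing cells and 5 UMIs in 4 of 84 others. Klf2 was at 256 against 126 CPM. Glycolysis genes were past 2-fold in 0 of 10 with a median of 0.15. Whether the direction of Klf2 differs between the B cells and the MHCII-high cells was not tested.

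The D cyclins found in dividing cells differed by class. Dividing naïve B cells had Ccnd3 in 18 of 22 cells, Ccnd2 in 2 and Ccnd1 in 0. The 18 dividing MHCII-high cells at 72 h had Ccnd3 in 14, Ccnd2 in 12 and Ccnd1 in 9. Dividing T cells at 72 h had Ccnd3 in 6 of 6, Ccnd2 in 5 and Ccnd1 in 0. The 6 include the Clec9a positive cell described above, with 3 UMIs each of Ccnd2 and Ccnd3. The 10 dividing myeloid cells at 72 h had Ccnd3 in 5, Ccnd2 in 5 and Ccnd1 in 3. Other cells of the classes differed as well, since Ccnd1 was found in 36 of 84 other MHCII-high cells and 2 of 78 other T cells at 72 h.

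The 10 dividing myeloid cells at 72 h ranged widely in Mφ genes. Of them 9 met the C1q criterion (C1qa, C1qb and C1qc at 0.1% or more of UMIs), as did 522 of 639 other myeloid cells (81.7%) and 10 of the 10 nearest in depth. The same minimum was met by 6 of 78 other T cells (7.69%) and 5 of 47 other B cells (10.6%), so that it does not by itself mark a Mφ. By the summed tissue macrophage list 8 of the 10 were at 8066 to 42286 CPM, above every other T cell, which reached 5398 CPM, and 2 were at 3725 and 4247 CPM. Fcrls, a gene of resident Mφs, was at 352 CPM in dividing and 131 CPM in other myeloid cells (ratio interval 1.80 to 3.91). The summed tissue macrophage list was lower in dividing cells, at 17651 against 35714 CPM, and Apoe was at 8538 against 21903 CPM with 313 of 728 UMIs in 1 cell. Monocyte genes were also low, with Plac8 at 176 against 850 CPM and Ly6c2 in 1 of 10 cells. Saa3, of serosal Mφs, was at 2205 against 1043 CPM, but 184 of its 188 UMIs in dividing cells came from 1 cell.

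In naïve mice dividing Mφs were spread over several criteria. The 1 dividing myeloid cell had 137 UMIs of the tissue macrophage list, including 31 of C1qa and 53 of Apoe. A cell without a criterion had 118 UMIs of the list, with Lyz2 at 0.155% of UMIs. The 2 cells that met both the T and the myeloid criterion had 1 UMI over 8 T cell genes each, beside 238 and 407 of the macrophage list. The cell that met the B and myeloid criteria held 43 UMIs of B cell and 216 of macrophage genes, and the 1 with B and T criteria 7 of B cell and 3 of T cell genes. The other naïve cell without a criterion had 9 UMIs of Cd209a and 601 of the MHCII genes and no Lyz2.

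The 5 dividing cells at 24 h other than the B cell had 6 to 77 UMIs of the monocyte list, or 2113 to 6477 CPM. Other B and T cells of that library were at 2677 and 2618 CPM as groups, and 3 of the 5 dividing cells, at 2113, 2240 and 2769 CPM, were near that level. Single other B and T cells reached 8268 and 10116 CPM, above all 5 dividing cells. The summed monocyte list therefore does not set any of the 5 apart from lymphocytes. The 3 MHCII-high cells had 27, 56 and 21 UMIs of Plac8, 5, 14 and 3 of Ccr2, the receptor of recruited monocytes, and 1 to 2 of C1qa. The deeper of the 2 myeloid cells had 13 UMIs of Plac8, 12 of Ccr2 and 65 UMIs of replication and nucleotide genes, and was the 1 dividing cell of this library with a doublet score of 0.2 or more. The other myeloid cell, at 2678 UMIs, had 3 UMIs of the rule genes, 4 over the T cell genes and 5 of Ccl5. None of the 5 met the C1q criterion, or the monocyte criterion of Ly6c2, Plac8 and Chil3 at 0.5% or more of UMIs. The C1q criterion was met by 886 of 1523 other myeloid cells at 24 h (58.2%) and by 33 of 123 other MHCII-high cells (26.8%). The latter is the class of 3 of the 5. The monocyte criterion was met by 290 (19.0%) and 22 (17.9%) of them, counted only in cells that met no Retnlg, C1q or Cd209a criterion.

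Dividing T cells were 5 in naïve mice and 6 at 72 h, too few for more than a count of their subset genes. In naïve mice 3 of 5 had Trdc, the constant region of the γδ receptor, against 74 of 144 other T cells (51.4%), and 1 cell held 343 UMIs of granzyme A (Gzma) and 187 of Ccl5. At 72 h 0 of 6 had Trdc against 25 of 78 others (32.1%), which was 3 of 6 in the other T cells nearest in depth, at a median of 6449.5 UMIs against 10627 in the dividing cells. Ccl5, a chemokine gene of cytotoxic T cells, was at 447 CPM in dividing and 15143 CPM in other T cells at 72 h, and Gzmb was in 1 of 6 and 24 of 78 cells. The 6 dividing cells include the Clec9a positive cell, whose other genes go against a T cell. It gave 14097 of their UMIs, with 1 of Ccl5 and 0 of Trdc and Gzmb. Cd8a was found in 3 of the 6, with 8, 18 and 1 UMIs. The cell with 8 held 123 UMIs of Gzma and the cell with 18 held 16. The cell with 1 had 4 UMIs of Foxp3, the factor of regulatory T cells, 2 of Icos and 25 of Tnfrsf4. A further dividing T cell had 4 UMIs of Ctla4 and 3 of Cd4.

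The 3 dividing cells at 72 h with no criterion and low MHCII held genes of T cells or innate lymphocytes. They had 4, 17 and 12 UMIs over the T cell genes without Cd3e. The deepest, at 11502 UMIs, had 15 UMIs of NK and innate lymphoid genes, 11 of Nkg7 and 3 of Gata3. Of the 2 cells with 2 criteria at 72 h, 1 had 18 UMIs of T cell genes with 25 of Ccl5 and 34 of Lyz2, and the other 33 of B cell and 244 of macrophage genes. The latter also had a doublet score of 0.2 or more.

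The balance of replication and mitotic genes differed between groups. In the 22 dividing naïve B cells 32 replication and nucleotide genes gave 1175 UMIs and 37 mitotic and spindle genes 934, a ratio of mitotic to replication UMIs of 0.795 (interval 0.729 to 0.867). In the 18 MHCII-high cells at 72 h there were 384 and 724 UMIs, a ratio of 1.89 (interval 1.66 to 2.14), and 13 of 18 cells had more mitotic than replication UMIs. In naïve B cells 9 of 22 did. The 6 B cells at 72 h stood at 2.25, from 4 of 6 cells, and the 6 T cells at 72 h at 0.839, from 2 of 6. Both groups include a cell whose other genes go against its lineage, as described above. The Ccl17 positive cell among the B cells had 9 replication and 94 mitotic UMIs. The Clec9a positive cell among the T cells had 54 and 19. Ratios without these cells were not computed. Over all dividing cells the ratio was 0.916 in naïve mice, 0.777 at 24 h and 1.70 at 72 h. The intervals cover counting error and not the spread between cells, and in naïve B cells the ratio ran from cells with 43 replication and 5 mitotic UMIs to cells with 14 and 79.

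**Figure D5:**
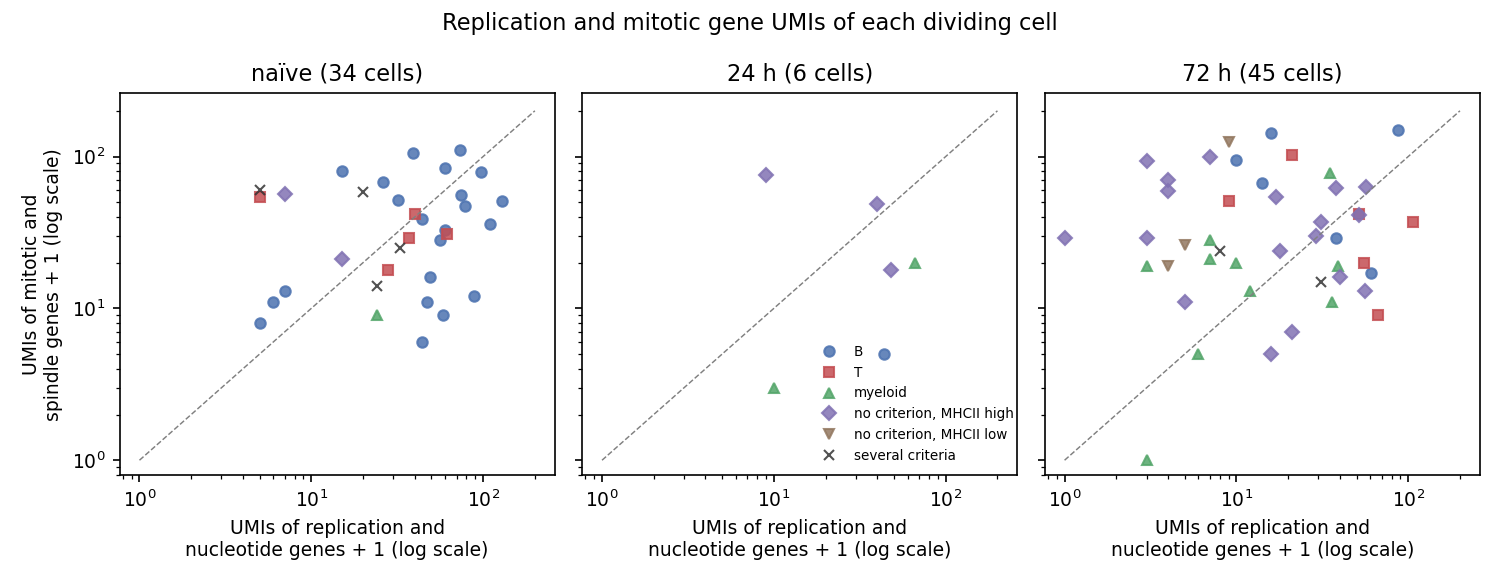
UMIs of 37 mitotic and spindle genes (y axis) against UMIs of 32 replication and nucleotide synthesis genes (x axis), each + 1 on log scales, for every dividing cell in the 3 libraries. Symbols give the lineage criterion, and the dashed line marks equal UMIs. At 72 h 29 of 45 cells lie above the line, against 15 of 34 in naïve mice and 2 of 6 at 24 h.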

How the data were processed

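Droplet 3′ libraries of sorted CD45+ cells were sequenced, and the authors counted UMIs with Cell Ranger 3.0.2 on the GRCm38 (mm10) genome and removed cells with under 200 genes or over 10% mitochondrial UMIs. The deposited files hold raw UMI counts for 14148 genes in 3 libraries. The submitters' notes also name Seurat, whose version is not given in the sources used here. Counts were summed over cells and given as CPM. Levels were compared as log2 of (CPM + 10) for genes with a mean of at least 50 CPM over both groups and called past 2-fold. Intervals are exact (Clopper-Pearson for shares, conditional binomial for ratios of counts) at 95%. A limit for a count of 0 takes 3 counts. Gene lists were summed over all measured members. For cells nearest in depth, the other cell nearest in total UMIs was taken once for each dividing cell. Doublets were kept, and Scrublet scores (in scanpy 1.11.5) of 0.2 or more, a value set after the scores were seen, were left out as an alternative. The named genes were the 10 with the highest and the 10 with the lowest log2 ratio in a comparison. Python 3.11.15, numpy 2.4.6, scipy 1.17.1, pandas 2.3.3 and matplotlib 3.10.9 were used, and the steps were tested on simulated data. The members and gene lists were chosen with earlier results of these data known. The MHCII-high class and its comparison, which has fewer than the planned 20 dividing cells, the comparison within germinal centre positive cells and the exclusion of plasma-rich cells were added after the data were seen. Promoter windows came from RefSeq, build GRCm38.p6.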

Additional observations from a re-analysis of the deposited data

How the results depend on the processing

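No paired analysis was possible because each time point had 1 library. Of 131 recomputed main results 112 stayed within the limits set for them and 19 moved, and of 480 other recomputed values 418 stayed, 60 moved and 2 reversed. For a share the limit was the exact interval of the main result. That interval is wide where few cells were counted, as for B cells at 24 h (1 of 39, interval 0.0649 to 13.5%), so staying within it says little there. Thinning each cell to 1500 UMIs, which leaves out shallower cells and makes 3 UMIs harder to reach, gave 1.93% for all cells at 72 h, 0 for B and for myeloid cells at 24 h, 0.508% for myeloid cells at 72 h and 4.85% for MHCII-high cells at 72 h. With 2 UMIs as the threshold the myeloid share at 72 h was 3.08%, and with Lyz2 at 1% the myeloid share at 24 h was 0. Counts past 2-fold rested on the filter. In naïve B cells a minimum of 20 CPM gave 1027 higher and 415 lower, and no filter 1472 and 869. In MHCII-high cells at 72 h these were 457 and 203, and 743 and 681, and with other cells matched in UMIs 102 were lower. Taking the other cells nearest in UMIs gave a germinal centre share of 50% in other naïve B cells and a C1q macrophage share of 100% in other myeloid cells at 72 h. Within germinal centre positive cells 320 genes were higher, and over the genes of the naïve B cell comparison the median log2 ratio of the germinal centre list reversed from 2.28 to -0.34 and Klf2 to 1.44, on 3 against 0 UMIs. The cause was not tested for any of these.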
